A study of Mus musculus with 6 samples.

Results

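Native-rich bins are the stretches of the mouse autosomes in which native TH2B gave more islands than tagged TH2B did in either of 2 germ cell types. Chromosomes 1 to 19 of the build mm9 were divided into 258 bins of 10 Mb, and every island was placed in a bin by its midpoint. A bin was kept when its count of wild-type islands exceeded both its spermatocyte and its round spermatid count. This held for 103 of the 258 bins (39.9%), which spanned 963 Mb, or 39.0% of the autosomal length. They held 14387 of the 44771 autosomal islands of the 3 lists, of which 7292 were wild-type, 3949 round spermatid and 3146 spermatocyte islands. The counts chose the bins, so they are given as a description and nothing is tested on them.

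TH2B is a testis-specific variant of histone H2B. It is made in male germ cells as they enter meiosis, takes the place of much of the somatic H2B, and stays in the chromatin until histones give way to transition proteins and protamines, the small basic proteins that pack sperm DNA. An island is a broad region of enrichment that the program SICER builds by joining neighbouring windows. A regional count of islands shows how many stretches passed the caller's threshold there, and does not measure how much of the histone was present.

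The 3 ChIP libraries came from adult mice, and each had an input library. In Th2b+/tag mice, TH2B carries His, Flag and HA tags at its C-terminus on 1 of its 2 gene copies, so these cells also hold untagged TH2B, and ChIP was done with an anti-HA antibody. Spermatocytes (meiotic) and round spermatids (post-meiotic) of these mice were separated on a BSA gradient. The wild-type library used an antibody against TH2B itself on total male germ cells, a mixture of germ cell stages. Genotype, antibody and cell composition therefore all differ between the native and the tagged libraries and cannot be told apart. Sequencing depth may differ as well. There was 1 library per group, with no replicate error, and no ChIP of cells lacking the tag or the protein was analysed here. The labels describe pooled fractions of both tagged cell types, read here as pooled within each type. Island lists hold no expression values, so the labelled cell types could not be checked against marker genes.

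Across the 3 full lists, there were 15585 spermatocyte, 17340 round spermatid and 13582 wild-type islands. Read depth was known only inside islands. Those of the native-rich bins summed to 995032 ChIP and 708430 control reads in the wild-type list, 553098 and 413601 in the round spermatid list and 371121 and 293835 in the spermatocyte list. The median island there had 122, 116 and 104 ChIP reads in the same order. Per kb of island, the medians were 33.3, 25.4 and 22.7 control reads and 47.8, 35.5 and 29.3 ChIP reads. Reads were thus densest in the wild-type list, and the part of depth in the counts that the rule compares was not tested.

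The native-rich bins had more wild-type islands than the other 155 autosomal bins and also fewer tagged ones. Wild-type islands numbered 7.57 per Mb in the native-rich bins and 4.03 per Mb elsewhere. Spermatocyte islands numbered 3.27 per Mb there and 7.83 elsewhere, and round spermatid islands 4.10 and 8.28. The 2 kinds of bin thus differed in all 3 lists, with more islands in the wild-type list and fewer in both tagged lists. The bins held 54.5% of the autosomal wild-type islands, 24.0% of those of round spermatids and 21.0% of those of spermatocytes. By bases, wild-type islands covered 2.12% of the native-rich bins and 1.09% of the others, round spermatid islands 1.48% and 3.03%, and spermatocyte islands 1.26% and 2.97%.

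**Figure D1:**
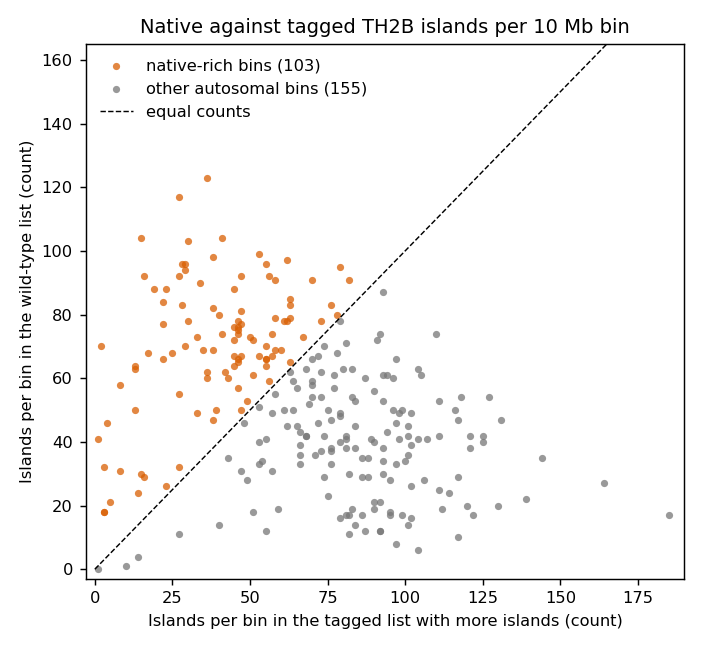
Each point is 1 autosomal bin of 10 Mb (the last bin of a chromosome is shorter), with its count of wild-type islands on the vertical axis and the larger of its 2 tagged counts on the horizontal axis; the dashed line marks equal counts. The 103 native-rich bins lie above the line by construction, with 18 to 123 wild-type islands, and the other 155 bins lie below it, with 0 to 87.

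Single native-rich bins varied widely. The wild-type count ran from 18 to 123 islands with a median of 72, the round spermatid count from 1 to 82 with a median of 39, and the spermatocyte count from 0 to 66 with a median of 30. In the other bins the medians were 40, 81 and 76. The ranges of the single lists overlapped between the 2 kinds of bin. The wild-type count divided by the larger tagged count had a median of 1.69 among the native-rich bins and reached at least 1.5 in 61 of them, 2 in 39, 4 in 15 and 10 in 4.

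The rule was decided by few islands in some bins. Just inside it, chr1:180000001-190000000 had 80 wild-type islands beside 78 in round spermatids and 35 in spermatocytes, and chr8:110000001-120000000 had 65 beside 63 and 45. Just outside it, chr6:120000001-130000000 had 62 wild-type islands beside 63 in round spermatids and 34 in spermatocytes, and chr11:30000001-40000000 had 78 beside 66 and 79. In these bins the wild-type count was within 2 islands of the larger tagged count, while the spermatocyte counts ran from 34 to 79. Of all bins outside the rule, 16 had more wild-type than spermatocyte islands but not more than round spermatid islands, and 3 had the reverse. The chr6 bin is among the 16 and the chr11 bin among the 3.

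The margin was widest in the distal parts of chromosomes 7, 4 and 2. At the end of chromosome 7, chr7:150000001-152524553 had 41 wild-type islands, 1 round spermatid island and 0 spermatocyte islands, which was 16.2 wild-type islands per Mb. On chromosome 4, chr4:130000001-140000000 had 70 wild-type islands and 2 in each tagged list, and the last bin, chr4:150000001-155630120, had 46 wild-type, 4 round spermatid and 0 spermatocyte islands. The last bin of chromosome 2, chr2:180000001-181748087, had 32 wild-type islands and 3 in each tagged list, or 18.3 wild-type islands per Mb. In all 4 of these bins the wild-type count was at least 10 times the larger tagged count.

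The next 6 bins by this ratio were chr11:100000001-110000000, with 58 wild-type, 5 round spermatid and 8 spermatocyte islands, chr9:60000001-70000000 with 104, 15 and 13, chr5:150000001-152537259 with 18, 3 and 0, chr11:120000001-121843856 with 18, 2 and 3, chr5:30000001-40000000 with 92, 16 and 15, and chr13:50000001-60000000 with 64, 13 and 5. Last bins are shorter than 10 Mb, and their high ratios rest on small tagged counts. The bins chr9:60000001-70000000 and chr5:30000001-40000000 were of full length and had more wild-type islands than the 72 of the median native-rich bin. The other full-length bins among the 10 had fewer, with 70 in chr4:130000001-140000000, 58 in chr11:100000001-110000000 and 64 in chr13:50000001-60000000. The median fold of wild-type islands in these 10 bins lay between 1.36 and 1.47, beside 1.47 for all wild-type islands outside the native-rich bins.

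Of the 19 last bins of the autosomes 12 were native-rich, while of the 19 first bins, which hold the centromeric end of the mouse chromosomes, 4 were. Over all autosomal bins the share was 39.9%. All 19 last bins were shorter than 10 Mb, and some held few islands. That of chromosome 13, of 0.284 Mb, had 1 spermatocyte island and 0 in the other lists. The difference between first and last bins was not tested. The native-rich first bins were on chromosome 11, with 50 wild-type, 39 round spermatid and 34 spermatocyte islands, chromosome 14 with 30, 15 and 10, chromosome 17 with 64, 45 and 23, and chromosome 19 with 29, 16 and 14. Those of chromosomes 14 and 19 had fewer wild-type islands than the median of 40 in the other bins. They met the rule with still lower tagged counts. The 7 last bins that were not native-rich were on chromosomes 3, 8, 10, 12, 13, 17 and 18. At the end of chromosome 17, for example, 12 wild-type islands stood beside 55 in round spermatids and 41 in spermatocytes.

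Native-rich bins adjoined each other in 21 runs of 2 or more, which held 75 of the 103, and 28 stood alone. The longest run covered the distal part of chromosome 11, chr11:50000001-121843856, with 8 bins and 602 wild-type, 227 round spermatid and 163 spermatocyte islands. Runs of 6 bins ended chromosome 4 (chr4:100000001-155630120, with 469, 172 and 122 islands), chromosome 5 (chr5:100000001-152537259, with 349, 144 and 112) and chromosome 7 (chr7:100000001-152524553, with 461, 212 and 177). A run of 5 bins ended chromosome 2 (chr2:140000001-181748087, with 344, 179 and 115), and another of 5 opened chromosome 17 (chr17:1-50000000, with 303, 177 and 152). In each of these 6 runs the wild-type total was above either tagged total, as the rule requires of every bin in them.

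Runs of 4 bins lay at chr9:40000001-80000000, with 355 wild-type, 129 round spermatid and 122 spermatocyte islands, and at chr15:70000001-103494974, with 240, 106 and 111. Runs of 3 bins lay at chr9:100000001-124076172, chr13:50000001-80000000, chr14:20000001-50000000, chr16:10000001-40000000 and chr19:40000001-61342430, with wild-type totals of 182, 215, 272, 238 and 152. Of the latter 5, the wild-type total was nearest to the round spermatid total on chromosome 19, where it stood beside 134.

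Runs of 2 bins lay at chr1:180000001-197195432, chr2:20000001-40000000, chr5:20000001-40000000, chr6:80000001-100000000, chr7:30000001-50000000, chr8:110000001-130000000, chr12:70000001-90000000 and chr14:60000001-80000000. The 28 bins that stood alone had 26 to 96 wild-type islands (median 71), 15 to 79 round spermatid islands (median 48) and 10 to 55 spermatocyte islands (median 39). They began at 90 and 130 Mb on chromosome 1, 120 on chromosome 2, 100 on chromosome 3, 40 on chromosome 4, 30, 50, 110 and 140 on chromosome 6, 80 on chromosome 7, and 10, 70 and 90 on chromosome 8. On the other chromosomes they began at 60 and 80 Mb on chromosome 10, 0 on chromosome 11, 20 and 100 on chromosome 12, 30 and 90 on chromosome 13, 0 and 120 on chromosome 14, 30 on chromosome 15, 90 on chromosome 16, 80 on chromosome 17, 30 and 60 on chromosome 18 and 0 on chromosome 19.

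The autosomes contributed unequally. Native-rich bins were 9 of 13 on chromosome 11 (69.2%), 6 of 10 on chromosome 17 (60.0%), 4 of 7 on chromosome 19 (57.1%) and 9 of 16 on chromosome 7 (56.2%). At the other extreme were chromosome 3 with 1 of 16 (6.25%), chromosome 10 with 2 of 13 (15.4%), and chromosomes 1 and 18 with 4 of 20 and 2 of 10 (the same share). Every autosome had at least 1. On chromosome 3 the only native-rich bin was chr3:100000001-110000000, with 92 wild-type, 56 round spermatid and 34 spermatocyte islands.

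**Figure D2:**
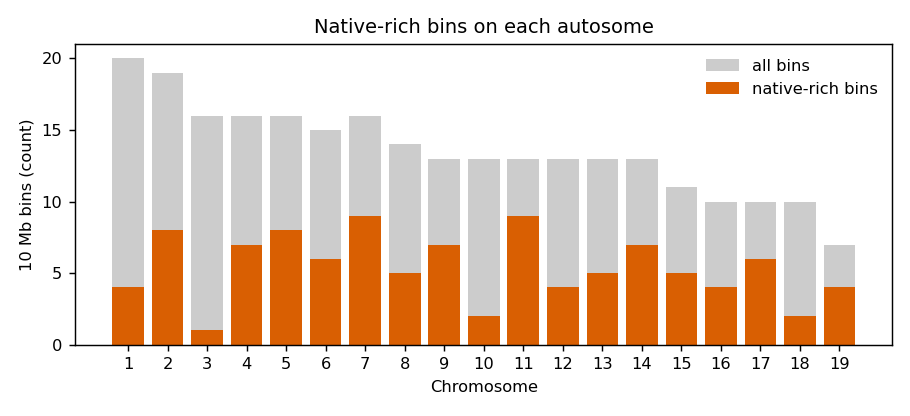
For each autosome, the grey bar is the number of 10 Mb bins and the orange bar in front of it the number that were native-rich. Chromosome 11 had 9 native-rich bins of 13 and chromosome 3 had 1 of 16.

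At a finer scale wild-type islands were the most numerous in most 1 Mb windows of the native-rich bins. The native-rich bins were divided into windows of 1 Mb, of which 951 held an island of any list. The wild-type count exceeded both tagged counts in 680 of these windows (71.5%), beside 274 of 1463 (18.7%) in the other bins, a share that follows in part from the rule. The median window held 7 wild-type, 2 round spermatid and 2 spermatocyte islands. Tagged islands were missing from 146 of the 951 windows (15.4%), beside 23 (1.57%) in the other bins, and wild-type islands from 9 (0.946%), beside 166 (11.3%). A position missing from a list may still carry reads below the caller's threshold.

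The window with the most wild-type islands was chr4:146000001-147000000, with 33 beside 5 in round spermatids and 8 in spermatocytes. The window before it had 22, 7 and 14. Together, from 145 to 147 Mb, the 55 wild-type islands covered 356 kb, and 10 of them were at least 10 kb long. Their median fold was 1.30, below the 1.44 of all wild-type islands in native-rich bins, and their median control density was 54.7 reads per kb, beside 33.3. Of the 55, 14 had a control density above 2 times the autosomal median of their list. The 22 spermatocyte islands of this stretch also had a low median fold, of 1.29, and a control density of 34.4 reads per kb, beside 22.7 for all spermatocyte islands in native-rich bins. The 12 round spermatid islands there were short, with a median length of 1900 bp, and had a median fold of 1.62, above the 1.46 of their list in native-rich bins, at a control density of 35.9 reads per kb. This cluster therefore lay where the control libraries were read-rich; the part of control depth in its count was not tested.

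The other 10 of the 12 most crowded windows, a choice made after the values were seen, had median control densities of 33.0 to 37.4 reads per kb under wild-type islands, with adjoining windows joined. All except chr16:23000001-24000000 were above the 33.3 of all wild-type islands in native-rich bins. In chr7:150000001-152000000 there were 38 wild-type islands and 0 in either tagged list. Their folds ran from 1.21 to 2.24 with a median of 1.39, their median length was 2400 bp and their median control density was 35.0 reads per kb. The window chr16:97000001-98000000 had 25 wild-type, 8 round spermatid and 4 spermatocyte islands, with median folds of 1.42, 1.42 and 1.39. The window chr9:60000001-61000000 had 20, 2 and 0, and chr16:23000001-24000000 had 22, 12 and 6. In these 4 stretches on chromosomes 7, 9 and 16 no wild-type island had a control density above 2 times the autosomal median. Such a density was rare, at 0.699% of wild-type islands in native-rich bins.

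Wild-type islands in the native-rich bins were more numerous but of lower fold than those elsewhere. The fold is the ratio of ChIP to control reads, scaled by the authors. Its median was 1.44 in the native-rich bins (quartiles 1.33 and 1.60) and 1.47 in the other bins (1.35 and 1.67), and the quartiles overlapped almost entirely. Taken bin by bin, the median wild-type fold lay below 1.48, the middle value of the other bins' own medians, in 95 of the 103 native-rich bins. Of the 7292 wild-type islands, 358 had a fold of 2 or more (4.91%, interval 4.42 to 5.43), beside 477 of 6076 (7.85%, 7.19 to 8.56) in the other bins and 6.25% over all autosomes. These intervals are exact 95% Clopper-Pearson intervals, and like all intervals here they cover counting error only. Both shares come from the list that chose the bins, and no test was made. The word rich thus describes numbers of islands relative to the tagged lists, and the enrichment of the single native island was not greater in these bins.

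The tagged islands of the native-rich bins had folds closer to those elsewhere. In spermatocytes the median fold was 1.501 in native-rich bins and 1.514 in the others, and in round spermatids 1.46 and 1.47. Such a fold of 2 or more occurred in 226 of 3146 spermatocyte islands (7.18%, 6.31 to 8.14), beside 9.61% (9.08 to 10.2) in the other bins and 9.1% over all autosomes. In round spermatids it occurred in 246 of 3949 (6.23%, 5.50 to 7.03), beside 6.71% (6.28 to 7.17) and 6.6% over all autosomes. The share was thus lower in native-rich bins in every list, by least in round spermatids, where the intervals overlapped. Islands of 1 library are not replicates, so the intervals do not decide which lists differed, and this was not tested.

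Island length had the same median in both kinds of bin in every list. It was 2600 bp for wild-type islands, 3400 bp for round spermatid islands and 3600 bp for spermatocyte islands. The upper quartile of wild-type lengths was 3400 bp in native-rich bins and 3200 bp elsewhere, a difference of 1 window of 200 bp. Islands of at least 10 kb made up 31 of the spermatocyte islands in native-rich bins (0.985%, 0.670 to 1.40; 0.390% elsewhere), 15 of the round spermatid islands (0.380%, 0.213 to 0.626; 0.600% elsewhere) and 27 of the wild-type islands (0.370%, 0.244 to 0.538; 0.197% elsewhere). Of the 27 wild-type ones, 10 lay in the cluster at 145 to 147 Mb of chromosome 4.

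Control reads were denser under wild-type islands in native-rich bins. The median control density there was 33.3 reads per kb (quartiles 30.0 and 36.7), beside 32.0 (28.4 and 35.6) in the other bins. In spermatocytes it was 22.7 and 22.5 reads per kb, and in round spermatids it was 25.4, higher by 0.357 reads per kb than elsewhere. Taken bin by bin and set against the middle value of the other bins' own medians (31.8, 24.8 and 22.5 reads per kb for wild-type, round spermatid and spermatocyte islands), the wild-type median was above it in 94 of 103 native-rich bins, the round spermatid median in 75 of 103, and the spermatocyte median in 61 of the 100 with spermatocyte islands. Across 257 autosomal bins with wild-type islands, Spearman's rho between the median wild-type control density and the number of wild-type islands per Mb was 0.57. The corresponding rho with the control density of tagged islands was 0.20 for round spermatids (257 bins) and 0.11 for spermatocytes (255 bins). Points in each of these share a library and its depth, so they are descriptions. Density was known only inside islands, and the part of control depth in the wild-type counts was not tested.

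ChIP read density differed little between the 2 kinds of bin. Its median in wild-type islands was 47.8 reads per kb in native-rich bins and 47.0 elsewhere. In round spermatids it was 35.5 and 35.3 and in spermatocytes 29.3 and 29.4. Among wild-type islands, then, the control density differed by more reads per kb than the ChIP density did.

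**Figure D3:**
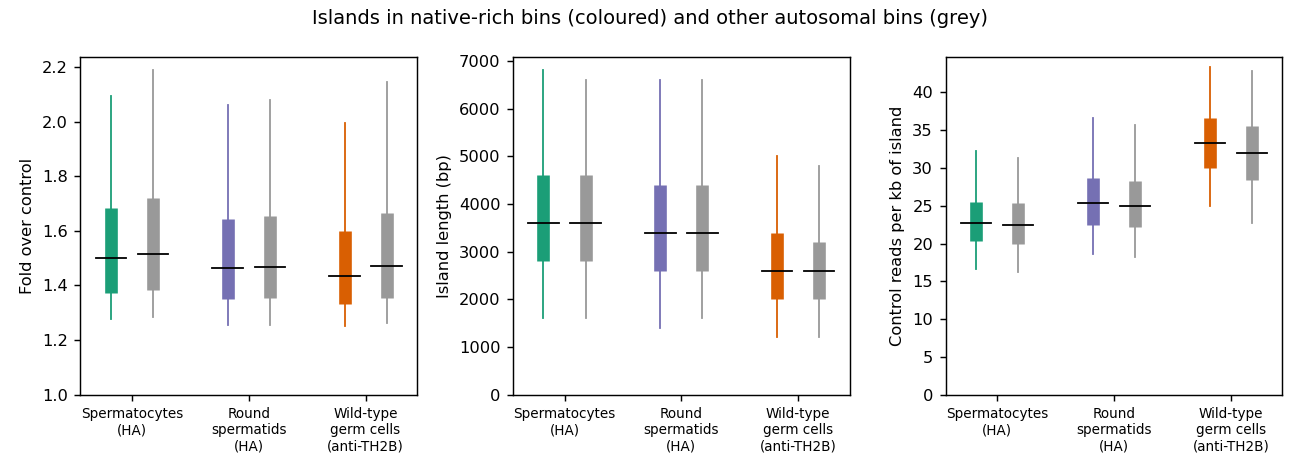
Fold over control (axis from 1), island length in bp and control reads per kb of island, for islands of each list in native-rich bins (coloured) and in all other autosomal bins (grey); black lines are medians, thick bars run from the 25th to the 75th percentile and thin lines from the 5th to the 95th percentile. Medians of length coincide, while wild-type islands of native-rich bins had a median fold of 1.44 beside 1.47 and a median control density of 33.3 beside 32.0 reads per kb.

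Within the native-rich bins a wider margin went mostly with fewer tagged islands. Bins were grouped by the wild-type count divided by the larger tagged count. From the 42 bins at 1 to 1.5 to the 15 bins at 4 or more, spermatocyte islands went from 4.48 to 0.993 per Mb and round spermatid islands from 5.37 to 1.35 per Mb, while wild-type islands went from 6.87 to 8.35 per Mb. The grouping used these counts, so the order is a description of it. The median fold of wild-type islands was 1.44, 1.43, 1.43 and 1.44 in the 4 groups, with overlapping order-statistic intervals (1.43 to 1.45 in the first and 1.42 to 1.45 in the last), and their median control density was 33.1, 33.3, 33.5 and 33.4 reads per kb. All 4 medians of fold were below the 1.47 of the other bins.

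**Figure D4:**
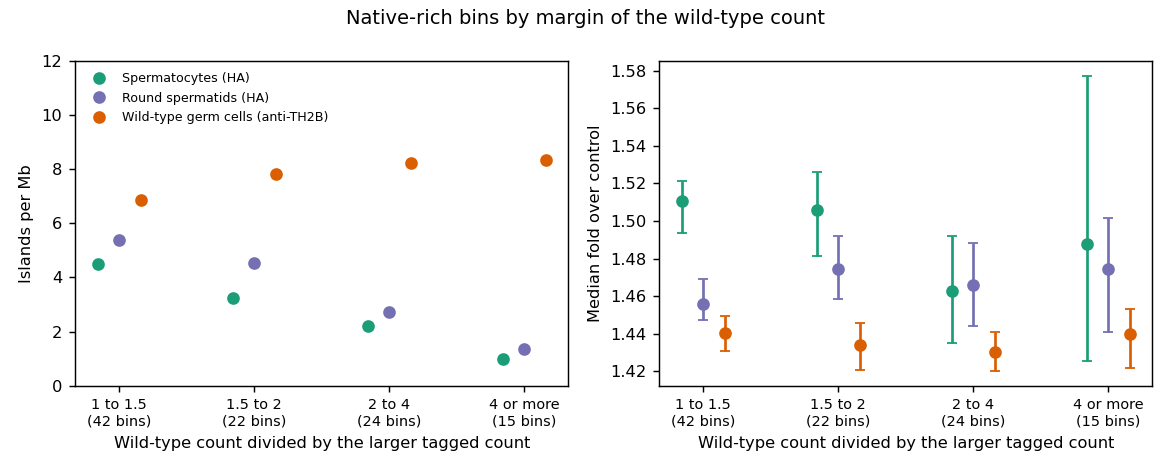
Native-rich bins in 4 groups by the wild-type count divided by the larger tagged count, with islands per Mb of each list (left) and the median fold over control with its binomial order-statistic 95% interval (right, axis not from 0). Spermatocyte islands went from 4.48 to 0.993 per Mb across the groups by construction, while the wild-type median fold stayed between 1.43 and 1.44.

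Round spermatids had more islands than spermatocytes in most native-rich bins. They did in 81 of the 103, fewer in 17 and as many in 5, and the totals gave 1.26 round spermatid islands for each spermatocyte island. In the other bins they had more in 87 of 155 and fewer in 66, with 1.06 islands for each. The highest ratio of round spermatid to spermatocyte islands, among native-rich bins with at least 5 spermatocyte islands, was in chr7:30000001-40000000, with 45 round spermatid and 9 spermatocyte islands beside 72 wild-type ones. In chr12:20000001-30000000 there were 79 and 29 beside 95. In the opposite direction chr5:20000001-30000000 had 10 and 29 beside 70, and chr15:70000001-80000000 had 23 and 45 beside 67. These bins were chosen after their values were seen. The round spermatid list is also the longest of the 3, and the difference was not tested.

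The counts of the 2 tagged lists rose and fell together among the native-rich bins more closely than either did with the wild-type count. Across the 103 bins, Spearman's rho of islands per Mb was 0.82 between spermatocytes and round spermatids, 0.03 between spermatocytes and wild-type germ cells and 0.13 between round spermatids and wild-type germ cells. The tagged libraries share genotype, antibody and source. Across all 258 bins the values were 0.86, -0.58 and -0.49. Inside the other 155 bins they were 0.64, -0.25 and -0.03. The rule itself ties the counts to each other inside either kind of bin.

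Native islands in these bins seldom coincided with tagged ones. Of the 7292 wild-type islands, 454 overlapped a tagged island by at least 1 bp (6.23%, 5.68 to 6.81), beside 15.1% (14.2 to 16.1) in the other bins and 10.3% over all autosomes. By list, 215 overlapped a spermatocyte island (2.95%, 2.57 to 3.36; 7.59% elsewhere, 5.06% over all autosomes) and 276 a round spermatid island (3.78%, 3.36 to 4.25; 8.87% elsewhere, 6.1% over all autosomes). Tagged islands covered less of the native-rich bins, as given above, and the part of this in the shares was not tested. In the reverse direction 212 of 3146 spermatocyte islands overlapped a wild-type island (6.74%, 5.89 to 7.67; 3.90% elsewhere, 4.5% over all autosomes), and 272 of 3949 round spermatid islands did (6.89%, 6.12 to 7.72; 4.29% elsewhere, 4.91% over all autosomes). The 2 directions differed as the densities of the lists did.

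Overlap between the tagged lists was closer to that elsewhere. In native-rich bins 491 spermatocyte islands shared bases with a round spermatid island (15.6%, 14.4 to 16.9; 16.8% elsewhere, 16.6% over all autosomes), and 499 round spermatid islands did with a spermatocyte island (12.6%, 11.6 to 13.7; 15.9% elsewhere, 15.1% over all autosomes). Spermatocyte islands that overlapped a wild-type island had a median fold of 1.42, beside 1.51 for those that did not, and a median length of 4000 bp beside 3600. Round spermatid islands showed the same order, with 1.40 beside 1.47 and 3800 bp beside 3400. Longer islands meet others more often, and the part of length in this difference was not tested.

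**Figure D5:**
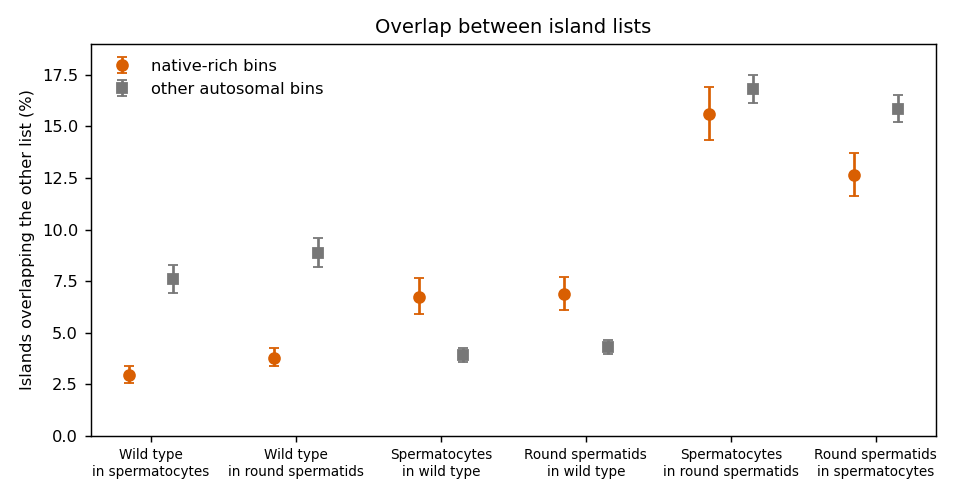
Share of islands of the first-named list that overlapped an island of the second by at least 1 bp, in native-rich bins (orange circles) and all other autosomal bins (grey squares), with exact 95% Clopper-Pearson intervals. Of wild-type islands 2.95% and 3.78% overlapped the tagged lists in native-rich bins, beside 7.59% and 8.87% elsewhere.

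Wild-type islands stood closer together in these bins and farther from tagged ones. The median distance from the midpoint of a wild-type island in native-rich bins to that of the nearest other wild-type island was 39.1 kb, beside 63.7 kb in the other bins. To the nearest spermatocyte island it was 194 kb, beside 55.4, and to the nearest round spermatid island 146 kb, beside 48.7. A native island of these bins was thus typically nearer to another native island than to a tagged one, as the counts that chose the bins imply.

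The islands of highest fold among those with at least 50 ChIP reads were shorter than the median island of their list. In wild-type germ cells they were chr8:77150601-77151200 and chr16:95597201-95597800, each with 54 ChIP and 11 control reads and a fold of 4.96 (interval 2.57 to 10.5), followed by chr13:67014001-67015000 with 4.55, chr16:19404401-19406000 with 4.04 and chr11:72174801-72175600 with 3.91. None of the 5 overlapped a tagged island, as was the case for most wild-type islands of these bins, of which 6.23% did. They were 600 to 1600 bp long, below the median length of 2600 bp.

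In spermatocytes the first was chr2:174318201-174320600, with 83 ChIP and 24 control reads and a fold of 4.05 (2.55 to 6.67), followed by chr16:20050601-20052800 with 3.94, chr12:72820401-72822200 with 3.63, chr13:90604001-90605000 with 3.58 and chr1:186082401-186084600 with 3.56. The chr12 island overlapped a round spermatid island and the other 4 overlapped none, beside 21.0% of all spermatocyte islands in these bins that overlapped either other list. In round spermatids the first was chr13:39206001-39207000, with 64 ChIP and 14 control reads and a fold of 4.85 (2.69 to 9.36), followed by chr16:14042801-14043600 with 4.16, chr1:96506401-96507800 with 3.77, chr15:90974201-90975400 with 3.62 and chr12:100133601-100134800 with 3.44. None of these overlapped an island of another list, beside 18.5% of all round spermatid islands in these bins that did. As the extremes of those of the 14387 islands with at least 50 ChIP reads, all 15 rest on few control reads. Their intervals are not corrected for the choice.

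The 5 longest islands of each list in the native-rich bins had folds of 1.06 to 1.32, below the median of their list. Among the wild-type ones 4 of the 5 longest shared a stretch of 320.2 kb on chromosome 4. They were chr4:146519201-146551000, chr4:146750401-146780400, chr4:146810001-146839400 and chr4:146790201-146809200; their folds were 1.09, 1.09, 1.08 and 1.07 and their control densities 74.1, 106, 71.9 and 182 reads per kb. The other was chr8:19745601-19764400, with a fold of 1.06 and 242 control reads per kb. In spermatocytes the longest was chr14:45314001-45333200 with a fold of 1.10, and 3 of the next 4 were in the same distal part of chromosome 4, namely chr4:146790001-146808600, chr4:144993401-145010800 and chr4:147006801-147024000, whose folds were 1.07, 1.15 and 1.12. The first of these 3 overlapped the wild-type island chr4:146790201-146809200. The remaining one was chr13:37091801-37106400 with a fold of 1.29.

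In round spermatids the longest was chr11:3025801-3100400, of 74600 bp, next to the centromeric end of chromosome 11, with 32890 ChIP and 32669 control reads and a fold of 1.07. It was followed by chr6:33101401-33116400, chr14:61553601-61567800, chr2:176810201-176823000 and chr4:121644401-121657000, with folds of 1.22, 1.32, 1.31 and 1.15. Control densities of these 4 were 24.9, 38.4, 37.6 and 52.9 reads per kb, against 438 for the first. Of the 5 longest, the chr14 island overlapped islands of both other lists.

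Islands found by both antibodies and in both tagged cell types were few. Of the 7292 wild-type islands in native-rich bins, 37 overlapped islands of both tagged lists (0.507%, 0.358 to 0.699), beside 81 of 6076 (1.33%, 1.06 to 1.65) in the other bins. Both tagged lists were sparser in native-rich bins. Spermatocyte islands numbered 3.27 per Mb beside 7.83, and round spermatid islands 4.10 beside 8.28. The part of this in the lower share was not tested. The highest wild-type fold among them was at chr17:16207001-16209000, with 102 ChIP and 47 control reads and a fold of 2.19 (1.54 to 3.17). It overlapped the spermatocyte island chr17:16206401-16209400 with a fold of 1.62 (1.21 to 2.17) and the round spermatid island chr17:16206001-16208200 with 1.39 (1.02 to 1.92). The interval of the native fold overlapped that of each tagged fold.

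The next were chr13:33353601-33356600 with a wild-type fold of 2.08, beside 1.29 in spermatocytes and 1.31 in round spermatids, chr8:77166801-77169200 with 1.82, beside 1.60 and 1.30, chr9:77533201-77534400 with 1.77, beside 1.55 and 1.27, and chr18:30734801-30736800 with 1.76, beside 1.29 and 1.29. The tagged islands at these 4 places were longer than the wild-type island in both lists, so the folds do not compare the same stretch. At the chr9 place the interval of the round spermatid fold, 0.973 to 1.65, included 1. The chr8 locus lay 15.6 kb from the wild-type island chr8:77150601-77151200. Among islands with at least 50 ChIP reads, that island shared the highest wild-type fold with chr16:95597201-95597800. In all 5 places the wild-type fold was the highest of the 3, in a set that was ranked by it.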

How the data were processed

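The 3 deposited lists had 8 columns and no header, and the meaning of each column was read from the values. Islands were called with SICER on mm9, per the submitters' processing notes, with a window of 200 bp and a gap of 600 bp by the lists' own names. For the aligner, versions and read filters, the sources used here give nothing. Per island the authors deposited counts of ChIP and of control reads, a p-value and an FDR (at most 0.00999) per island, and a fold, which was checked to equal the ratio of ChIP to control reads over a constant of each list (0.854 in spermatocytes, 0.944 in round spermatids, 0.989 in wild-type germ cells). The lists name no control library, and the input of the matching cells was assumed. The wild-type input carries the TH2B antibody in its labels and was read as an input from its title. Ends were brought to 1 convention, positions are counted from 1, and chromosome lengths of mm9 came from GenomeInfoDb 1.38.1. Overlaps were counted with bedtools 2.31.1, and other values with Python 3.11.15, pandas 2.3.3 and scipy 1.17.1. Counting and overlap were tested on simulated lists.

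With 1 library per group no test was made. Intervals (95%) of folds are exact binomial intervals of the read counts, those of shares are Clopper-Pearson, and those of medians are order-statistic intervals. They cover counting error only. Bins were named when they had the 10 highest ratios of wild-type to larger tagged count, stood in runs, or lay at the edge of the rule. Islands were named for the 5 highest folds (at least 50 ChIP reads), the 5 greatest lengths, or presence in all 3 lists. The members and rules were chosen with earlier results of these data known. Genes and sequences at these positions were not analysed here, since the reference tables use another build.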

Additional observations from a re-analysis of the deposited data

How the results depend on the processing

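Under 47 of 50 alternatives the value stayed inside its counting interval or, for the number of bins, within 1.5 times the count or share, and under 3 it did not. The 3 were the wild-type fold at an FDR of at most 0.0001 and the overlap share in both of its settings. Of the 50, 12 concerned median length, whose difference was 0 in all of them. Another 12 concerned the number of bins, for which the limit is wide. The number of native-rich bins, 103 of 258, was 118 with counts divided by list totals, 116 with equal numbers of islands, 89 at an FDR of at most 0.0001 and 75 by covered bases, in which wild-type islands, being shorter, count for less. All 103 bins were kept in the first 2 of these settings, 87 of them in the third and 75 in the fourth. Keeping all 103 was certain beforehand. The wild-type list is the shortest, so the first 2 settings only lower tagged counts relative to wild-type counts. With settings chosen after seeing the data, it was 119 against the spermatocyte list only, 106 against the round spermatid list only, 91 of 239 full-length bins and 84 among islands with a fold of at least 1.5. Bins of 5 and 20 Mb gave 193 of 505 and 48 of 134, and bins starting at 5 Mb gave 92 of 247.

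The median wild-type fold of native-rich bins differed from that of the other bins by -0.035, and at an FDR of at most 0.0001 by -0.048 (1.63 beside 1.68). It kept its sign in all 4 of its alternatives, as did the difference in wild-type control density of 1.29 reads per kb. The round spermatid fold difference, -0.0047, became 0.0049 in bins with a wild-type count at least 1.5 times each tagged count. The intervals of both tagged fold differences included 0. They were -0.030 to 0.004 in spermatocytes and -0.018 to 0.009 in round spermatids. The share of wild-type islands overlapping a tagged island, 6.23%, was 2.58% with 50% reciprocal overlap (6.81% in the other bins) and 2.59% at an FDR of at most 0.0001 (6.82% in the other bins). Both settings leave fewer overlaps by construction. No paired analysis was possible because each group had 1 library. Depth outside islands was not known, so counts of islands are not amounts of TH2B.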
